A study of Mus musculus with 20 samples.

Results

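The expression of 7 genes of the Myc network was followed in livers and liver tumours of mice with a conditional knockout of Apc: Myc and Mycn, their dimerisation partner Max, and the Max-binding repressors Mxd1, Mxd4, Mxi1 and Mnt. Members were taken as all probe sets of the array whose annotation gives 1 of these symbols and no other, which found 16 of 45037 probe sets and 7 of 18193 genes. The rule reads the annotation only. RNA came from liver of male C57BL/6 mice in 4 groups of 5 samples, and every group carried the conditional allele (labelled conditional APCko), so no wild-type liver was compared. Per the sample protocols all mice were injected once with 0.75 mg tamoxifen at 6 weeks of age and, from 1 week later, fed for 9 months; the design text of the series gives DEN, a liver carcinogen, in place of tamoxifen, a conflict that the labels do not resolve.

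The groups were adenomas from mice on a diet with 0.05% phenobarbital (APCko_Adenoma), carcinomas from mice without phenobarbital (APCko_Carcinoma), non-tumour liver with phenobarbital (PB_NT, phenobarbital liver below) and non-tumour liver without it (H2O_NT, untreated liver below, kept on standard chow per the protocols). Phenobarbital is a sedative that activates the receptor CAR in hepatocytes and promotes rodent liver tumours. Since each tumour stage came with its own diet, stage and diet cannot be told apart. Nothing in the labels ties each sample to a mouse of its own, so p-values measure only the spread between these samples.

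MYC and MYCN are transcription factors that bind DNA only as dimers with MAX, mostly at the E-box CACGTG, and activate genes of ribosome production, metabolism and cell division. MAD-type proteins (encoded by Mxd1, Mxd4 and Mxi1) and MNT compete for MAX and recruit SIN3 and histone deacetylases to the same sites, where they repress transcription, so the network can be read as a balance of activating and repressing dimers. Myc is a classical target of beta-catenin in the gut, and APC is part of the complex that destroys beta-catenin.

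The genes lie, in assembly GRCm38.p6, at chr15:61985341-61990361 (Myc), chr12:12936093-12941836 (Mycn), chr12:76937269-76962323 (Max), chr6:86647044-86669234 (Mxd1), chr5:34176580-34187710 (Mxd4), chr19:53310128-53373293 (Mxi1) and chr11:74830806-74845725 (Mnt). RefSeq promoter windows of 300 bases, with 250 before and 50 after a transcript start, were at hand for 6 of the 7 genes (8 windows) and were searched on both strands for the E-box CACGTG and for 4 forms of the motif bound by TCF and LEF, the DNA-binding partners of beta-catenin. The E-box stood in the windows of Max, Mnt and Mxd4, and in 7.15% of all 32851 windows of that length. The only other match was CTTTGAA, read on the opposite strand as TTCAAAG, in the window of Mycn, and 5.14% of all windows held it. The other forms were CTTTGAT, present in 3.73% of all windows, and CTTTGTA, present in 3.63% of them. The last form, CTTTGTT, was present in 5.85%, and 16.9% of all windows held any of the 4. The 4 sequences with a match are shown because these genes encode both a MYC protein and its partners and rivals at the E-box. They run from 250 bases before the start to the start (for Max to the third base after it, where the E-box crosses the start), 5′ to 3′ on the gene's strand, with the match in capitals.
Max, chr12:76962246-76962498, minus strand: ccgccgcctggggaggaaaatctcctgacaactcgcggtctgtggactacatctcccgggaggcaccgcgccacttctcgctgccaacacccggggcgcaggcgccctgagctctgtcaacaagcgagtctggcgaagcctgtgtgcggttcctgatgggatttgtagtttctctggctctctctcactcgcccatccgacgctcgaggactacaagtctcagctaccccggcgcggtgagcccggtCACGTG
Mxd4, chr5:34187711-34187960, minus strand: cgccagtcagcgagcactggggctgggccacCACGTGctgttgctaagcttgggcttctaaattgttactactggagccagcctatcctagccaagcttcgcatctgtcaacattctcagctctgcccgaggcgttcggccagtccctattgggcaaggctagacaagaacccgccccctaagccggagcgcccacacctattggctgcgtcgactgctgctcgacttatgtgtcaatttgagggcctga
Mnt, chr11:74830674-74830923, plus strand: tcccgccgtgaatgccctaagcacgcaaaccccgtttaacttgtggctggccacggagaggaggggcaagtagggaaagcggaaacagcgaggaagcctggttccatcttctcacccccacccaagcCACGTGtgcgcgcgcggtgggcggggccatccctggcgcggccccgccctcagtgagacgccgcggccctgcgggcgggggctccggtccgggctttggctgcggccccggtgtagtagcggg
Mycn, chr12:12941837-12942086, minus strand: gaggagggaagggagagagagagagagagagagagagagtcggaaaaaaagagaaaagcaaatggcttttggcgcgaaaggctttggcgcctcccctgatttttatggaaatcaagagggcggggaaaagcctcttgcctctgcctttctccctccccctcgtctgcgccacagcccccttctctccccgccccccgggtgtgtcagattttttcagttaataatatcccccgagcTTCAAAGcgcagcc
A match describes the letters of the window and does not show binding. The promoter windows of Mxd1 and Mxi1 held none of these motifs.

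All values are log2 expression values from the deposited table, whose array medians ran between 5.52 and 5.63, and each level or difference below is on that log2 scale. Untreated 3 and 4 stood apart from the rest of their group: they had 12.4 and 12.3 for Glul, a gene of hepatocytes next to the central vein, against 13.1 to 13.4 in the other 3, and 6.88 and 6.84 as their mean level over 9 proliferation genes, against 5.81 to 6.15. Leaving both out changed no call of a member gene. The level of Apc itself lay at 8.79 to 9.25 in adenomas, against 8.43 to 8.71 in phenobarbital liver, and at 10.5 to 11.0 in carcinomas, against 8.64 to 8.97 in untreated liver. Whether its probe set lies inside the deleted part is unknown here, so this level does not check the knockout. The tissue label held for hepatocyte markers in non-tumour liver, whose 10 genes averaged 14.0 to 14.4 per array, while carcinomas averaged 6.55 to 11.4, with the lowest value in carcinoma 2.

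Myc, with 1 probe set (1424942_a_at), was high in both kinds of tumour. The adenomas had 7.76, 8.59, 8.15, 8.94 and 8.86, the carcinomas 10.2, 9.21, 7.92, 9.93 and 9.57, phenobarbital liver 7.07, 6.86, 7.13, 7.72 and 7.37, and untreated liver 7.61, 6.47, 7.26, 7.93 and 6.93. Every adenoma lay above every phenobarbital liver, although adenoma 1 exceeded the highest of them by little. Of the carcinomas, 4 of 5 lay above every untreated liver. Carcinoma 3, at 7.92, exceeded every untreated liver except untreated 4, at 7.93, an array that stood apart from its group as given above. Myc was 2.34-fold higher in adenomas than in phenobarbital liver (log2 difference 1.23, SE 0.35, adjusted p = 0.015). It was 4.35-fold higher in carcinomas than in untreated liver (2.12, SE 0.35, adjusted p = 2.8e-05), and without carcinoma 3 the difference was 2.48.

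The level of Myc averaged 8.46 ± 0.50 in adenomas, 9.36 ± 0.89 in carcinomas, 7.23 ± 0.33 in phenobarbital liver and 7.24 ± 0.57 in untreated liver (SD, n = 5 each). Adenomas were lower than carcinomas (log2 difference -0.90, SE 0.35, adjusted p = 0.032), but the groups overlapped and the call did not hold without carcinoma 1, 4 or 5 or without adenoma 1 or 3, when the adjusted p lay between 0.064 and 0.097. The non-tumour groups differed by -0.01 with an interval from -0.75 to 0.73. The tumour effect of Myc, which is the tumour minus its own non-tumour liver, was not called different in adenomas and carcinomas (adenoma effect minus carcinoma effect -0.89, 95% interval -1.94 to 0.15, adjusted p = 0.15). Without carcinoma 3 this difference was -1.25 and passed (adjusted p = 0.014).

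**Figure D1:**
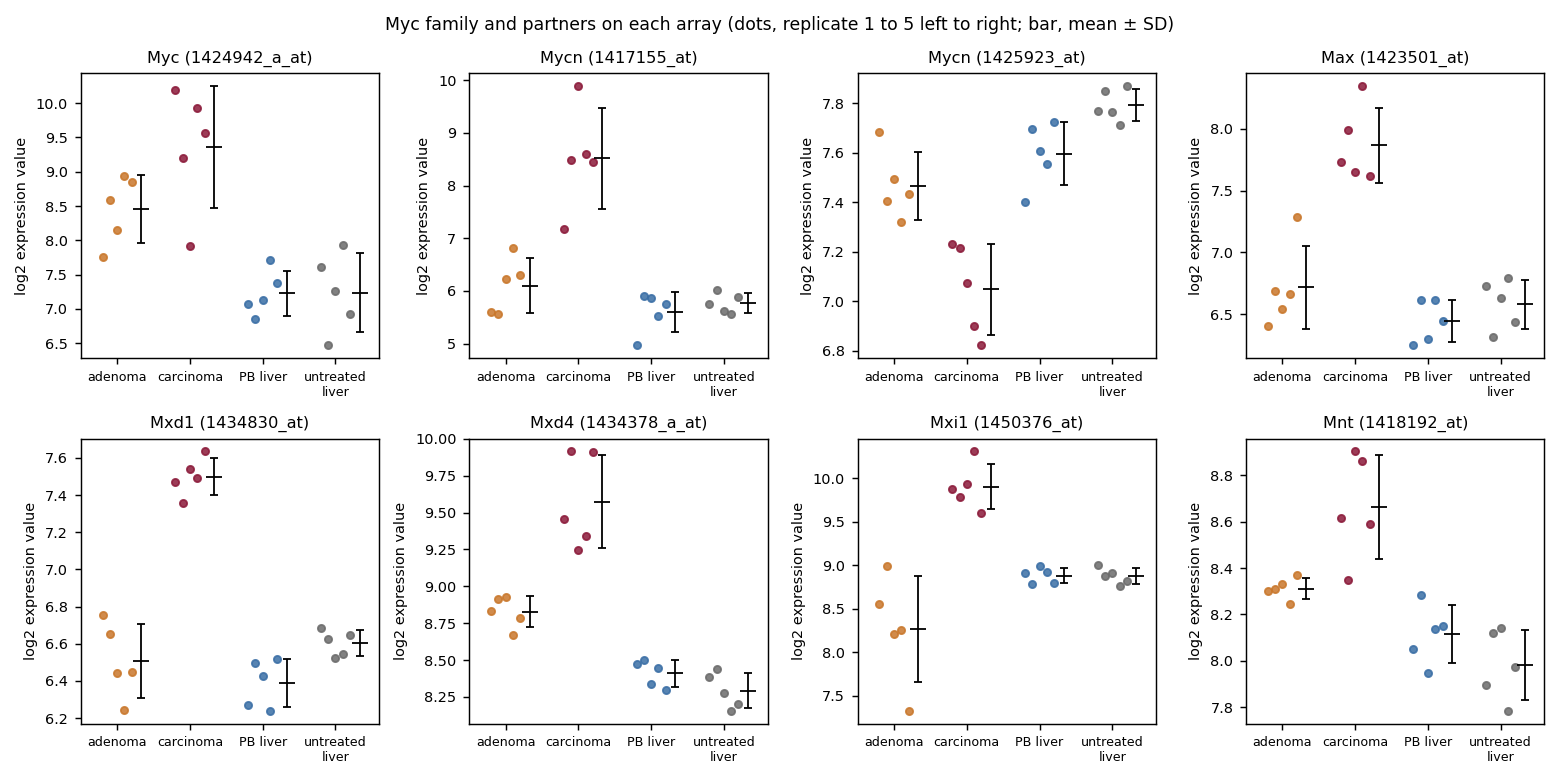
Log2 expression value (y axis) of 8 probe sets of the 7 genes on each of the 20 arrays, in adenomas, carcinomas, phenobarbital (PB) liver and untreated liver, with dots for replicates 1 to 5 from left to right and a bar for the mean ± SD. Myc is raised in adenomas and carcinomas, with carcinoma 3 at 7.92, while Mycn by 1417155_at and Max are raised mainly in carcinomas, and Mycn by 1425923_at is lowest there.

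Mycn, the family member best known from embryonic tissues and neuroblastoma, had 3 probe sets that gave different answers. By 1417155_at the adenomas had 5.60, 5.56, 6.22, 6.81 and 6.30, the carcinomas 7.17, 8.49, 9.89, 8.60 and 8.45, phenobarbital liver 4.96, 5.91, 5.86, 5.52 and 5.75, and untreated liver 5.76, 6.02, 5.63, 5.56 and 5.88. Non-tumour values lay between 4.96 and 6.02, near the median of an array, every carcinoma lay above every other sample, and 3 of 5 adenomas lay above the highest phenobarbital liver. This probe set was 6.74-fold higher in carcinomas than in untreated liver (log2 difference 2.75, SE 0.34, adjusted p = 6.2e-07), the largest difference among the 16 probe sets. In adenomas against phenobarbital liver it was 0.50 higher with an interval from -0.21 to 1.21 and did not pass (adjusted p = 0.35), and the tumour effects differed by -2.25 (SE 0.48, adjusted p = 0.00074).

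By 1425923_at, the brightest Mycn probe set and therefore the one that stands for the gene, the order was the opposite. The adenomas had 7.69, 7.41, 7.49, 7.32 and 7.43, the carcinomas 7.23, 7.22, 7.07, 6.90 and 6.82, phenobarbital liver 7.40, 7.69, 7.61, 7.56 and 7.72, and untreated liver 7.77, 7.85, 7.77, 7.71 and 7.87. Every carcinoma lay below every other sample. The difference of carcinomas from untreated liver was -0.74 (SE 0.09, adjusted p = 9.4e-07), that of adenomas from phenobarbital liver was -0.13 (adjusted p = 0.36), and the tumour effects differed by 0.61 (adjusted p = 0.00082). The dim probe set 1425922_a_at ranged from 5.10 to 5.95 over all samples, and its difference of -0.18 between carcinomas and untreated liver did not pass (adjusted p = 0.26). The mean of the 3 probe sets was higher in carcinomas (0.61, adjusted p = 0.0014), so the direction reported for Mycn depends on the probe set. Which transcripts or parts of the gene the probe sets match was not tested.

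Among the carcinomas, the order of the samples by Myc differed from that by Mycn 1417155_at. Carcinoma 3 had the lowest Myc of the carcinomas (7.92) and the highest Mycn by 1417155_at (9.89), whereas carcinoma 1 had the highest Myc (10.2) and the lowest Mycn (7.17), a value that still exceeded those of all samples other than carcinomas. By 1425923_at carcinoma 1 had the highest Mycn of the carcinomas (7.23) and carcinoma 3 had 7.07, in the middle of their range. Carcinoma 3 also had the highest mean over the 9 proliferation genes, 9.81 against 7.94 to 8.66 in the other carcinomas. With 5 samples no correlation was computed.

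**Figure D2:**
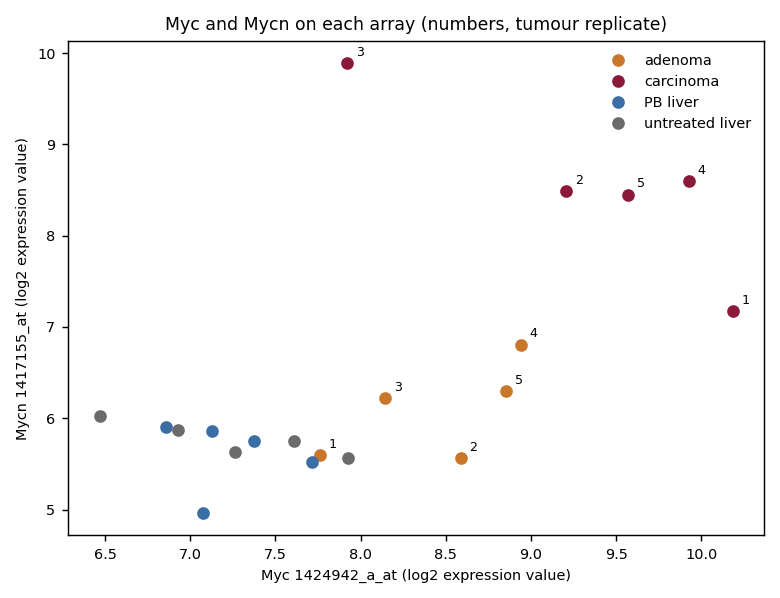
Each point is 1 array, with the log2 value of Myc (1424942_a_at) on the x axis and that of Mycn (1417155_at) on the y axis, coloured by group, and numbers give the replicate of a tumour. Carcinoma 3 stands at the top (Myc 7.92, Mycn 9.89) and carcinoma 1 at the far right (Myc 10.2, Mycn 7.17), while the adenomas lie right of most non-tumour samples at Mycn values of 5.56 to 6.81.

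Max, the obligate partner with 1 probe set (1423501_at), was raised in carcinomas. The adenomas had 6.41, 6.69, 6.55, 6.66 and 7.28, the carcinomas 7.73, 7.99, 7.65, 8.34 and 7.61, phenobarbital liver 6.25, 6.62, 6.30, 6.61 and 6.45, and untreated liver 6.73, 6.32, 6.63, 6.79 and 6.44. The carcinomas stood apart from all other samples, and among the adenomas only adenoma 5 exceeded every non-tumour value. Max was 2.44-fold higher in carcinomas than in untreated liver (log2 difference 1.28, SE 0.16, adjusted p = 7.2e-07). In adenomas the difference from phenobarbital liver was 0.27, with an interval from -0.06 to 0.61, and did not pass (adjusted p = 0.24), and the tumour effects differed by -1.01 (SE 0.23, adjusted p = 0.001).

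By the brightest probe set of each, all 4 repressors were called higher in carcinomas than in untreated liver. With the mean over all probe sets of a gene, Mxd1 and Mnt did not pass, as given below. Mxd4, a MAD-type repressor, was the only 1 of the 4 called higher in adenomas. By 1434378_a_at the adenomas had 8.84, 8.91, 8.93, 8.67 and 8.78, the carcinomas 9.46, 9.91, 9.25, 9.34 and 9.91, phenobarbital liver 8.48, 8.50, 8.33, 8.44 and 8.30, and untreated liver 8.39, 8.44, 8.27, 8.16 and 8.20. The carcinomas, the adenomas and the non-tumour samples formed 3 bands that did not overlap. Mxd4 was 1.33-fold higher in adenomas than in phenobarbital liver (log2 difference 0.42, SE 0.12, adjusted p = 0.014, and 0.051 after quantile normalization) and 2.43-fold higher in carcinomas than in untreated liver (1.28, SE 0.12, adjusted p = 1e-08). The tumour effects differed by -0.86 (SE 0.17, adjusted p = 0.00026).

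Mxi1, another MAD-type repressor, moved in opposite directions in the tumour groups by its brightest probe set. By 1450376_at the adenomas had 8.55, 8.99, 8.21, 8.25 and 7.33, the carcinomas 9.88, 9.78, 9.94, 10.3 and 9.60, phenobarbital liver 8.91, 8.79, 8.99, 8.92 and 8.79, and untreated liver 9.00, 8.88, 8.91, 8.76 and 8.82. All carcinomas lay above all other samples, 4 of 5 adenomas lay below every phenobarbital liver, and adenoma 2 lay at their upper end. Mxi1 was 2.04-fold higher in carcinomas than in untreated liver (log2 difference 1.03, SE 0.20, adjusted p = 0.00017). It was lower in adenomas than in phenobarbital liver (-0.61, SE 0.20, adjusted p = 0.032), but without adenoma 5 the difference was -0.38 and did not pass (adjusted p = 0.067). The call also did not hold without adenoma 3 or 4 or without phenobarbital liver 1, 3 or 4, when the adjusted p lay between 0.053 and 0.068. The tumour effects differed by -1.64 (SE 0.29, adjusted p = 8.7e-05), the largest such difference among the 7 genes by their brightest probe sets.

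Mxd1, the founding MAD gene, was called higher in carcinomas by 1434830_at. The adenomas had 6.75, 6.65, 6.44, 6.24 and 6.45, the carcinomas 7.47, 7.36, 7.54, 7.49 and 7.63, phenobarbital liver 6.27, 6.50, 6.43, 6.24 and 6.52, and untreated liver 6.68, 6.62, 6.52, 6.54 and 6.65. The carcinomas did not overlap any other group, and the adenomas overlapped both non-tumour groups. Mxd1 was 1.86-fold higher in carcinomas than in untreated liver (log2 difference 0.90, SE 0.09, adjusted p = 6.4e-08), against 0.12 in adenomas over phenobarbital liver (adjusted p = 0.41), and the tumour effects differed by -0.78 (SE 0.13, adjusted p = 7e-05).

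Mnt, a widely expressed repressor, was by 1418192_at 1.60-fold higher in carcinomas than in untreated liver (log2 difference 0.68, SE 0.10, adjusted p = 8.1e-06). The adenomas had 8.30, 8.31, 8.33, 8.25 and 8.37, the carcinomas 8.62, 8.35, 8.90, 8.86 and 8.59, phenobarbital liver 8.05, 8.28, 7.95, 8.14 and 8.15, and untreated liver 7.90, 8.12, 8.14, 7.78 and 7.98. All carcinomas exceeded all untreated livers, and the adenomas, which lay close together, overlapped the highest phenobarbital liver and the lowest carcinoma. The difference of adenomas from phenobarbital liver was 0.20 (adjusted p = 0.18), and the tumour effects differed by -0.48 (SE 0.14, adjusted p = 0.0097).

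Across the network, 7 of 7 genes passed the test in carcinomas against untreated liver, where 68.9% of all genes passed, so the count alone says little about these genes. Of the 7, 6 were higher and Mycn by 1425923_at was lower, against 31.4% of all genes higher and 37.6% lower, and their median difference was 1.03, against -0.12 over all genes. The groups did not overlap for 6 of the 7, against 53.2% of all genes, the exception being Myc. In adenomas against phenobarbital liver, 3 of 7 genes passed (Myc and Mxd4 higher, Mxi1 lower), against 24.6% of all genes (13.4% higher and 11.2% lower). Their groups did not overlap for Myc and Mxd4, 2 of 7, against 19.3% of all genes, and the median difference of the 7 was 0.20, against -0.03 over all genes.

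Between the tumour groups, 7 of 7 genes passed, 6 of them lower in adenomas and Mycn by 1425923_at higher, against 62.2% of all genes (33.6% higher and 28.5% lower). The groups did not overlap for 5 of 7, against 41.7% of all genes. The tumour effects differed for 6 of 7 genes, all except Myc, against 46.6% of all genes (23.3% in each direction). The carcinoma arrays enter both of these contrasts and the comparison with untreated liver, so the 3 counts are not independent. Phenobarbital without a tumour moved none of the 7 genes past the test (0 of 7 with limma, and Mxd1 alone at an unadjusted p under 0.05), against 0.214% of all genes. For Mxd1 the groups did not overlap (difference -0.21, adjusted p = 0.79), which held for 4.62% of all genes.

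The further probe sets of 5 genes did not all follow the brightest one. Of the 16 probe sets, 7 were higher and 4 lower in carcinomas than in untreated liver, against 63.1% of all probe sets called (28.3% higher and 34.9% lower). Opposite calls within a gene occurred for 4 of the 5 members with several probe sets, Mycn, Mxd1, Mxd4 and Mnt, against 12.3% of the 9010 genes with several probe sets. These members have 2 to 4 probe sets each, and the share was not matched for that number. For Mnt, 1418193_at had 4.66, 4.47, 4.55, 4.53 and 4.28 in carcinomas, against 5.03, 5.24, 5.42, 5.15 and 5.09 in untreated liver. These groups did not overlap and differed by -0.68 (adjusted p = 0.00014), a difference as large as that of 1418192_at with the other sign.

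For Mxd1, 1422002_at had 4.86, 4.64, 4.61, 5.07 and 4.81 in carcinomas, against 5.25, 5.81, 5.45, 5.14 and 5.61 in untreated liver. It was lower in carcinomas (log2 difference -0.66, adjusted p = 0.00031), while 1455104_at differed by 0.10 (adjusted p = 0.47). For Mxd4, 1422574_at differed by -0.46 (adjusted p = 0.04), a call that did not hold when any of 8 single arrays was left out, while 1434379_at (0.24, adjusted p = 0.1) and 1422575_at (-0.12, adjusted p = 0.3) did not pass. For Mxi1, 1425732_a_at differed by -0.26 (adjusted p = 0.15). In adenomas against phenobarbital liver this probe set was also lower, by -0.38. It did not pass there (adjusted p = 0.1), but did with only the compared groups fitted (0.031). The lower probe sets of Mnt and Mxd1 were dim, with levels below the median of an array in most samples. With the mean over all probe sets of a gene, the difference in carcinomas was 0.24 for Mxd4 (adjusted p = 0.047), 0.38 for Mxi1 (adjusted p = 0.023), 0.11 for Mxd1 (adjusted p = 0.21) and -0.0017 for Mnt (adjusted p = 0.99).

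In adenomas against phenobarbital liver, 3 of the 16 probe sets passed, against 18.8% of all probe sets, and no gene of the 7 had opposite calls, against 0.943% of genes with several probe sets. Mxd4 by 1422574_at lay close to such a call, at -0.52 (adjusted p = 0.057) against 0.42 by 1434378_a_at, and it passed after quantile normalization (adjusted p = 0.034), with array weights (0.041), with the replicate number as a block (0.044) and without adenoma 5 (-0.69, adjusted p = 0.0075), carcinoma 2 (0.047) or phenobarbital liver 3 (0.044). None of the 16 passed in phenobarbital against untreated liver, against 0.147% of all probe sets, and 1 had an unadjusted p under 0.05.

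**Figure D3:**
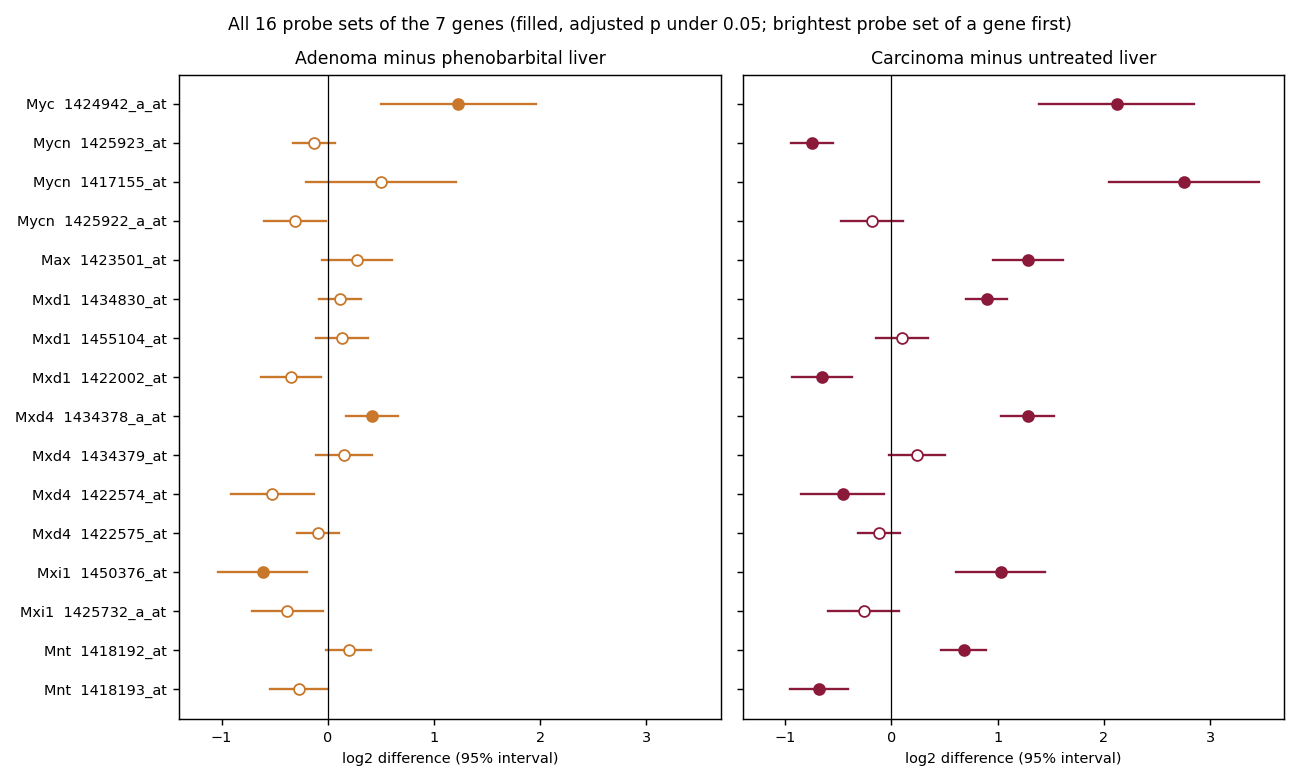
Log2 differences with 95% intervals for all 16 probe sets, adenoma minus phenobarbital liver on the left and carcinoma minus untreated liver on the right, with filled points for an adjusted p under 0.05 and the brightest probe set of a gene first. In carcinomas the probe sets of Mycn span 2.75 to -0.74 and those of Mnt 0.68 to -0.68, and in adenomas 3 points are filled, those of Myc, Mxd4 and Mxi1.

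These tissues also differed in their cell type markers, in a comparison where 68.9% of all genes passed. In carcinomas 10 of 10 hepatocyte markers were lower than in untreated liver, with mean levels per array of 6.55 to 11.4, against 14.2 to 14.4. Of 8 stellate and fibroblast markers 6 were higher and 1 lower (mean levels 9.86 to 11.0, against 7.49 to 8.53), with Acta2, an actin of contractile cells, higher by 7.20. Of 8 endothelial markers 7 were lower (5.57 to 6.41, against 8.22 to 8.63) and of 8 macrophage markers 5 were lower (6.18 to 7.55, against 7.97 to 8.99). Of 5 measured bile duct markers 2 were higher and 1 lower (5.97 to 7.41, against 4.81 to 5.61). In bulk tissue, fewer cells of a type and less RNA per cell cannot be told apart, and the part of these cell types in the values of the Myc network was not tested.

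In adenomas, where 24.6% of all genes passed, 2 of 10 hepatocyte markers were lower than in phenobarbital liver, Arg1 and Cps1 of the urea cycle (mean levels 12.3 to 13.4, against 14.0 to 14.1), and of 8 stellate and fibroblast markers 4 were higher and 2 lower (7.81 to 9.45, against 7.83 to 8.21). Of 8 endothelial markers 1 was higher and 2 lower (8.26 to 8.49, against 8.46 to 8.64), and of 8 macrophage markers 1 was higher and 4 lower (7.51 to 8.82, against 8.61 to 9.04). None of the T and NK cell, B and plasma cell, neutrophil or bile duct markers passed in adenomas. In carcinomas, where 31.4% of all genes were higher and 37.6% lower, 2 of 6 T and NK cell markers were higher and 1 lower. There 4 of 5 B and plasma cell markers were lower, as were 3 of 5 neutrophil markers.

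The other 6 members of the extended network were measured too. Mlxipl, which encodes the glucose-responsive factor ChREBP, a partner of MLX in hepatocytes, showed the largest difference: 6.67 ± 0.49 in carcinomas and 11.3 ± 0.09 in untreated liver (SD, n = 5 each; log2 difference -4.62, adjusted p = 1.1e-13), while adenomas at 11.0 ± 0.40 and phenobarbital liver at 11.2 ± 0.16 did not differ past the test (-0.30, adjusted p = 0.3). Mga, which encodes a large MAX-binding protein with a T-box domain, was higher in carcinomas by 1.29 (adjusted p = 1.2e-09), with 8.53 ± 0.15 in carcinomas and 7.24 ± 0.06 in untreated liver. Mlxip, the gene of the glucose sensor MondoA, was higher by 0.85 (adjusted p = 0.0037) and Mycl, the third MYC gene, by 0.81 (adjusted p = 0.025). Mlx, the MAX-like partner of both glucose sensors, was lower (difference -0.45, adjusted p = 0.0058), and Mxd3 differed by 0.21 (adjusted p = 0.18). So 3 of the 6 were higher and 2 lower in carcinomas, against 31.4% and 37.6% of all genes. In adenomas 0 of these 6 genes passed against phenobarbital liver, against 24.6% of all genes, with differences from -0.45 (Mlxip) to 0.44 (Mycl). Tumour effects differed for 4 of the 6, against 46.6% of all genes: Mlxipl (4.33), Mlx (0.46), Mga (-1.26) and Mlxip (-1.30).

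Of the cofactors through which the dimers act, most of those measured were higher in carcinomas. Of 13 measured coactivators and corepressors, 10 were higher and 1 lower than in untreated liver, against 31.4% and 37.6% of all genes, and their median difference was 0.61, against -0.12 over all genes. Among the higher ones were the histone deacetylases Hdac2 (2.20, adjusted p = 2.2e-10) and Hdac1 (1.87, adjusted p = 1.9e-11), which act in SIN3 complexes with the MAD proteins, and Trrap (0.91, adjusted p = 6.1e-06), a scaffold of the acetyltransferase complexes that MYC recruits. Wdr5, which anchors MYC to chromatin, was lower (-0.37, adjusted p = 0.0019). In adenomas only Ruvbl2, an ATPase of MYC-bound complexes, passed against phenobarbital liver (0.27, adjusted p = 0.045), which is 1 of 13, against 24.6% of all genes. Tumour effects differed for 10 of the 13, against 46.6% of all genes, with Hdac2 at -2.10 and Hdac1 at -1.79.

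Genes that control the stability of MYC protein were called in part. Of 15 measured, 7 were higher and 1 lower in adenomas, against 13.4% and 11.2% of all genes, with a median of 0.40, against -0.03 over all genes. In carcinomas 10 were higher and 2 lower, against 31.4% and 37.6% of all genes, with a median of 0.74, against -0.12. Cip2a, which shields MYC from dephosphorylation, was higher in adenomas (1.86, adjusted p = 3.9e-05) and in carcinomas (1.96, adjusted p = 2e-06). The mitotic kinases Plk1 and Aurka, which are reported to stabilise MYC proteins, were higher in adenomas (1.61 and 1.52), and in carcinomas Plk1 was higher (1.15) and Aurka was at 0.60 (adjusted p = 0.1). The deubiquitinase Usp28 was lower in adenomas (-0.56). The ubiquitin ligase subunit Skp2 was higher in adenomas (0.87) and in carcinomas (1.92). In carcinomas the deubiquitinase Usp37 (1.82) was higher, and the phosphatase subunit Ppp2r5a (-2.27) and the kinase Pim3 (-0.85) were lower. Plk1, Aurka, Cip2a and Skp2 are also known as cell division genes. In each tumour group 9 of 9 proliferation genes were higher, against 13.4% of all genes in adenomas and 31.4% in carcinomas. Their medians were 1.88 in adenomas and 2.16 in carcinomas. The part of cell division in the values of the turnover genes was not tested. Protein was not measured.

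Ribosome biogenesis genes, the best-known class of genes activated by MYC, were more often higher than lower in both tumour groups. In adenomas 12 of 32 were higher and 2 lower (median 0.20), against 13.4% of all genes higher and 11.2% lower (median -0.03). In carcinomas 18 of 32 were higher and 4 lower (median 0.42), against 31.4% and 37.6% (median -0.12). In adenomas the nucleolar proteins Nop58 (0.95) and Ncl (0.90) and the RNA polymerase I factor Rrn3 (0.82) rose most, and Utp20 (-0.54) and Pa2g4 (-0.39) fell. In carcinomas Nop56 (1.85), the helicase Ddx21 (1.505) and Rrn3 (1.47) rose most, and Rcl1 (-2.64), Wdr12 (-0.41) and Utp20 (-0.37) fell.

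Of 18 metabolic genes known as MYC targets, 8 were higher and 3 lower in adenomas (median 0.32), against 13.4% and 11.2% of all genes. In carcinomas 7 were higher and 5 lower (median 0.22), shares near the 31.4% and 37.6% of all genes. The glutamine transporter Slc1a5 was higher in adenomas (3.02, adjusted p = 7.1e-07) and in carcinomas (2.70, adjusted p = 1.6e-07). The amino acid transporter subunit Slc7a5 was higher in adenomas (1.80) and in carcinomas (1.15), and its partner Slc3a2 was higher in adenomas (1.98). The hexokinase gene Hk2 was higher in adenomas (1.11) and in carcinomas (4.04), as was the glucose transporter Slc2a1 (0.78 and 1.87). Shmt1 and Shmt2, of serine and glycine metabolism, were lower in adenomas (-1.16 and -0.59) and in carcinomas (-4.58 and -1.70), and so was the purine enzyme Paics (-0.59 and -0.89). The pyrimidine enzyme Umps was higher in adenomas (0.41) and lower in carcinomas (-1.21).

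Of 10 cell cycle genes known as targets, 3 were higher and 1 lower in adenomas, against 13.4% and 11.2% of all genes, and 5 were higher and 2 lower in carcinomas, against 31.4% and 37.6%. Cyclin gene Ccnd2 was higher by 0.97 in adenomas (adjusted p = 0.011) and by 4.39 in carcinomas (adjusted p = 2.1e-11), E2f2 by 0.74 and 1.14, and the kinase gene Cdk4 in carcinomas by 1.88. E2f3 was higher in adenomas (0.44) and in carcinomas (0.76). Tert, of telomerase, was lower in adenomas (-0.44), while Cks2 (-0.43) and E2f1 (-0.37) were lower in carcinomas.

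Genes known to be repressed by MYC changed in both directions. Of 8, 3 were higher and 3 lower in adenomas, against 13.4% and 11.2% of all genes, and 5 were higher and 3 lower in carcinomas, against 31.4% and 37.6%. The cell cycle inhibitor genes Cdkn1a and Cdkn2b, textbook examples of repression by MYC through MIZ1, were higher in adenomas (2.38 and 0.91) and in carcinomas (4.48 and 3.18), as was Ndrg1 (2.63 and 2.10). Ndrg2, Cebpa and Gas1 were lower in adenomas (-1.21, -1.09 and -3.34) and in carcinomas (-4.57, -4.42 and -0.72). Cebpa encodes a factor that maintains hepatocyte identity. Of 10 hepatocyte markers, 10 were lower in carcinomas and 2 in adenomas, against 37.6% and 11.2% of all genes. Whether these changes are linked was not tested.

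Myc is also an immediate early gene, induced within minutes of stimulation. Of 10 other immediate early genes 5 were higher and 1 lower in adenomas (median 0.79), against 13.4% and 11.2% of all genes, with Atf3 at 2.75, Ier3 at 2.60, Egr1 at 2.01 and Dusp1 at -0.77. In carcinomas 6 were higher and 3 lower (median 1.36), against 31.4% and 37.6% of all genes, with Ier3 at 3.60, Atf3 at 3.49, Jun at 2.53, Dusp1 at -1.49, Ier2 at -1.07 and Fosb at -0.32. How tissue handling affected these genes was not tested. The Wnt list held 9 measured genes, which are induced by the pathway except Ctnnb1, the gene of beta-catenin itself. Of these, 7 were higher in adenomas, against 13.4% of all genes, with Nkd1 at 3.04, Axin2 at 2.39 and Sp5 at 2.04. In carcinomas 9 of 9 were higher, against 31.4% of all genes, with Nkd1 at 7.39, Sp5 at 5.59 and Axin2 at 4.93. Ctnnb1 was at 0.13 in adenomas (adjusted p = 0.46) and at 1.89 in carcinomas (adjusted p = 2e-11). The tumour effects were smaller in adenomas for 9 of 9 genes of this list, Ctnnb1 included, against 23.3% of all genes. For Myc the difference of tumour effects was -0.89 and did not pass (adjusted p = 0.15), but it passed without carcinoma 3 and with array weights. Of 9 proliferation genes 0 passed, against 46.6% of all genes, with a median of -0.40. Whether Myc follows either list was not tested.

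**Figure D4:**
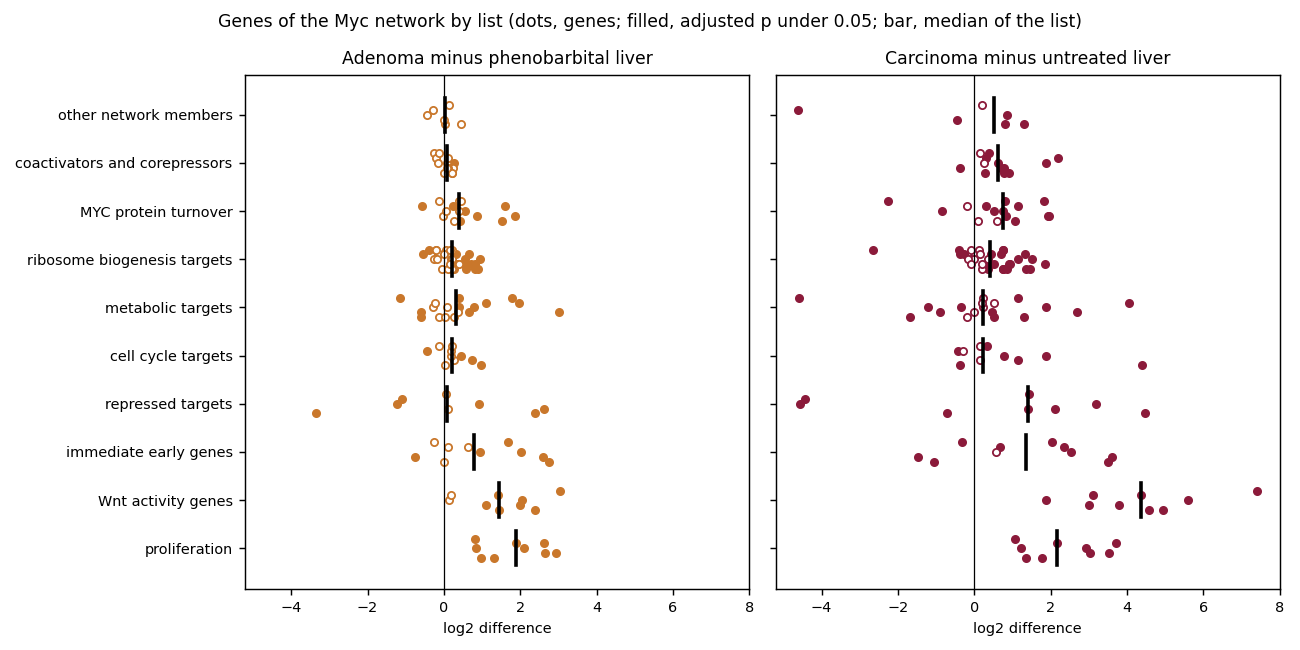
Log2 differences (x axis) of the genes of 10 lists around the Myc network, adenoma minus phenobarbital liver on the left and carcinoma minus untreated liver on the right, with filled dots for an adjusted p under 0.05 and a bar at the median of a list. Coactivators and corepressors lie near 0 in adenomas and have a median of 0.61 in carcinomas, and the repressed targets reach from -4.57 to 4.48 in carcinomas.

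The genes whose profiles over the 20 arrays were most like a member were ranked by the root mean square difference of centred log2 values, as a description of arrays that share their groups. For Myc they were Vasp (0.40), Itpripl2 (0.40) and Tacc2 (0.44), against a median of 1.13 over all genes. For Mycn by 1417155_at they were Pdlim2 (0.37), Cmtm7 (0.40) and BC034090 (0.40), against 1.37, and by 1425923_at Tbxa2r (0.12), Gsc2 (0.13) and Mfsd6l (0.13), against 0.44. These lists for Mycn had no gene in common. They hold 3 genes each and belong to probe sets with opposite differences in carcinomas, so this adds nothing about their disagreement. For Max they were Arid4b, Zfp59 and Tmod3 (0.20 to 0.22, against 0.73), for Mxd1 by 1434830_at Eef2, Kmt2e and Pias1 (0.14 to 0.15, against 0.60), and for Mxd4 by 1434378_a_at Anapc4, Ctbp1 and Tcp1 (0.16 to 0.17, against 0.66). For Mxi1 by 1450376_at they were Chd7, Ccnl2 and Prdm10 (0.27 to 0.28, against 0.77), and for Mnt by 1418192_at Chd2, Ruvbl2 and Uaca (all 0.14, against 0.47).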

How the data were processed

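RNA from snap-frozen liver tissue was labelled with biotin for Affymetrix arrays, per the labels' protocols. The authors deposited log2 values, 1 per probe set and array, for 20 samples; the submitters' processing notes name RMA, with no version, which corrects background, makes array distributions alike and summarises probes, so a shift common to all genes is removed and folds of dim genes shrink. There is no read depth; precision is limited by the number of arrays.

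Probe sets were named by GEO's platform annotation, updated through Entrez numbers to RefSeq genes of GRCm38.p6: 34945 had 1 symbol (34741 matched), 932 several and 9160 none. A gene was represented by its brightest probe set on average over the 20 arrays, passing over _x_at probe sets where another existed. limma 3.58.1 in R 4.3.3 (lmFit, eBayes, two-sided, 16 residual degrees of freedom, 1 fit over 4 groups) was run over all 18193 genes and over all 45037 probe sets, with Benjamini-Hochberg adjustment within a comparison and a threshold of 0.05. Gene results use the first fit, and probe sets that do not represent a gene the second. No gene filter was applied, so all 7 genes and 16 probe sets were tested. The fit was tested on simulated data.

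Members, lists and tests were chosen with earlier results of these data known. Named genes were all members, all of the other network genes, up to 3 called genes per direction with the largest difference in each list, and the 3 genes most like each member by its brightest probe set (and Mycn 1417155_at). For 12 list genes no single-symbol probe set was found. The alternatives tried were averaging all probe sets of a gene, dropping dim ones, trended robust eBayes, median centring, quantile normalization, array weights, a block for the replicate number, fitting each comparison's groups alone, and leaving arrays out. Replicate numbers are not stated to pair samples: over 30 pairs of samples with the same number in different groups, deviations from group means correlated at -0.11 to 0.13, so the numbers were not taken as pairs.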

Additional observations from a re-analysis of the deposited data

Results flagged for a closer look

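A test of the difference itself (limma, adjusted over all genes) found tumour effects that differed between adenomas and carcinomas for 6 genes: Mxi1 by -1.64, Max by -1.01, Mxd4 by -0.86, Mxd1 by -0.78, Mnt by -0.48 and Mycn by 0.61, the last by its brightest probe set. Mycn by 1417155_at differed by -2.25. Such differences passed for 46.6% of all genes, diet and stage cannot be told apart in them, and the cause was not tested.

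In 1 of 64 groups of 5 values tested, 1 sample stood far from the other 4: untreated liver 4 had 6.67 for Mxd4 by 1422574_at, against 7.03 for its nearest neighbour. Chance flags about 1 in 20 groups.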

How the results depend on the processing

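Over the alternatives run, 958 of 1008 results for member genes kept direction and side of the threshold. Another 23 kept direction but no longer passed, 2 newly passed and 19 turned sign without passing in either fit. The other 6 had passed before and turned sign. All 6 of these came from averaging all probe sets of a gene: in carcinomas against untreated liver Mycn was 0.61 and Mnt -0.0017, in adenomas against phenobarbital liver Mxd4 was -0.0125, in adenomas against carcinomas Mycn was -0.70 and Mnt 0.145, and the difference of tumour effects for Mycn was -0.59. After averaging, each of these Mycn values passed, while those of Mnt (adjusted p = 0.99 and 0.16) and Mxd4 (0.95) did not. That average also lowered the count of 7 of 7 in carcinomas against untreated liver, where Mxd1 (0.11, adjusted p = 0.21) and Mnt no longer passed. The count of 3 of 7 in adenomas against phenobarbital liver fell too, as Mxd4 no longer passed. That average left 4 of 7 genes called between adenomas and carcinomas and 3 of 7 for the difference of tumour effects, in place of 7 and 6. It also turned Mycn (0.02), Mxd1 (-0.03) and Mnt (-0.04) in adenomas against phenobarbital liver, none of which passed before or after; the other 16 such turns were of Myc and Mxi1 in phenobarbital against untreated liver, with Mxi1 at -0.0156 after centring and Myc at 0.0010 after quantile normalization. Of 2144 results for member probe sets, 65 turned sign without passing in either fit, among them Mxd4 by 1434379_at in carcinomas (-0.0136 after quantile normalization). After quantile normalization Myc (adjusted p = 0.055) and Mnt (0.059) no longer passed between adenomas and carcinomas. With array weights Mnt did not pass there (0.056), and the difference of tumour effects of Myc passed (-1.18, adjusted p = 0.034). With only the groups compared in the fit, Myc between adenomas and carcinomas (0.079) and Mxi1 in adenomas (0.085) did not pass.

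Leaving out 1 array in turn gave 7 genes called in carcinomas, 2 to 3 in adenomas, 6 to 7 between tumour groups, 6 to 7 for the difference of tumour effects and 0 for phenobarbital. Over all genes, the phenobarbital comparison called 39 genes, 205 with array weights, 265 with only its own groups fitted and 23 to 49 with an array left out, with 25 and 23 when phenobarbital liver 2 or 3 was left out. With the replicate number as a block, 7, 3, 7 and 6 member genes passed in carcinomas, in adenomas, between the tumour groups and for the difference of tumour effects, and 0 for phenobarbital, so no call of a member gene changed; Myc in adenomas had an adjusted p of 0.008. Of 30 same-number pairs, 7 samples correlated best with their own number. Each had 5 samples of the other group to match, so by chance about 1 in 5 would do so. Dim probe sets limit what can be seen for Mnt by 1418193_at, Mxd1 by 1422002_at and Mycn by 1425922_a_at, whose levels lay near or below the median of an array.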
